A study of Mus musculus with 12 samples.

Results

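Skeletal muscle of obese mice was compared after injections of PCN or of its vehicle, across all genes of the deposited count table. The members of the comparison are 6 of the 12 RNA-seq libraries of the series, 3 labelled PCN (numbered 11, 27 and 5) and 3 labelled Vehicle (15, 23 and 55), chosen by their labels alone. All 6 came from C57BL/6N mice that were 6 weeks old at the start of an 18-week high-fat diet. PCN was given into the peritoneal cavity at 50 mg/kg, 1 injection a day over 4 days, and the vehicle was corn oil with 30% DMSO, on the same schedule. Every animal of the comparison therefore carried the diet and the injections. Uninjected mice, 3 labelled HFD for the same diet and 3 labelled Chow for regular chow, serve below as side-by-side levels only. The labels give pieces of skeletal muscle without naming the muscle, and do not state that each library is a separate mouse, so the p-values measure the spread between these samples.

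PCN (pregnenolone carbonitrile) is a synthetic steroid that activates the rodent pregnane X receptor (PXR, encoded by Nr1i2). PXR is a nuclear receptor that pairs with a retinoid X receptor and binds hormone response elements of drug metabolism genes. Its textbook targets in liver and gut are cytochromes such as Cyp3a11, conjugating enzymes and efflux transporters. Muscle is no classical PXR tissue, and a systemic drug can also reach muscle through hormones and metabolites made elsewhere.

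Total counts were 16790642 to 17628784 in the Vehicle libraries and 14379421 to 19739226 in the PCN libraries. Levels are given as CPM, counts scaled to library size with TMM factors, in the fixed order Vehicle 15, 23 and 55, then PCN 11, 27 and 5. Differences are log2 fold changes, PCN minus Vehicle, with their standard error (SE), from edgeR's quasi-likelihood fit of the 6 libraries. The muscle identity was plain, with 15 fast-fibre genes at a mean log2 level of 11.78 to 12.5. The 13 liver markers of the lists were not analysed here.

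No gene separated PCN from Vehicle by the test. Of 12833 genes tested, 0 (0.00%) passed an edgeR adjusted p of 0.05, and the lowest adjusted p was 0.998. DESeq2 also called 0 genes, with 5 under an adjusted p of 0.1 (Kcnq5, Trdn, Ppp1r27, Fras1 and Tigd4), and its lowest adjusted p was 0.0779. The authors' deposited table gives 0 genes at that threshold too, with a lowest adjusted p of 0.1945. At an unadjusted edgeR p under 0.05 there were 362 genes (2.82%), 173 higher (1.35%) and 189 lower (1.47%) in PCN, against 642 that an even spread of p-values would place there; DESeq2 had 332. Without PCN 11 that count was 1004, among the genes that then passed the filter. With no expression filter it was 1004 as well, among all 24453 genes of the count table, with 21 genes past the adjusted threshold. As shares of the genes tested these equal counts differ. The PCN and Vehicle libraries did not overlap for 1088 genes (8.48%), 565 of them higher (4.40%) and 523 lower (4.08%) in PCN. Over all genes 52.3% were higher and 47.7% lower, with a median log2 fold change of 0.014. The diet contrast of the same series, HFD against Chow, fitted alike, had 977 of 12686 genes at an unadjusted p under 0.05 (7.70%) and 1620 with groups apart (12.8%).

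**Figure D1:**
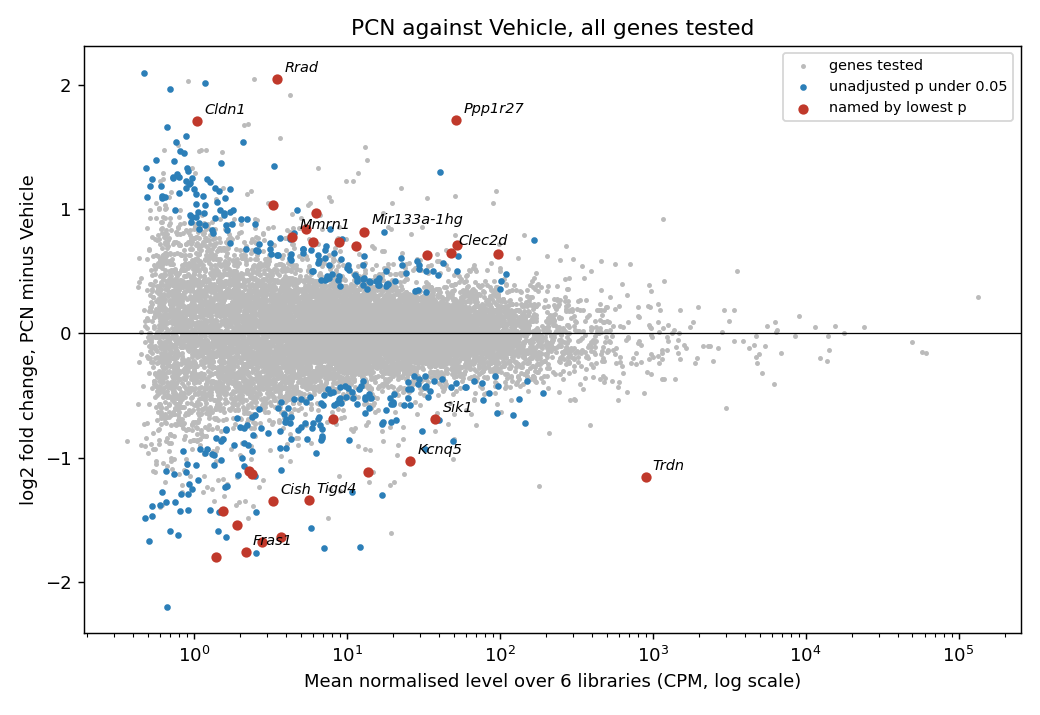
Log2 fold change (PCN minus Vehicle) of each of the 12833 genes tested against its mean level in CPM on a log axis. Grey points are genes tested, blue those with an unadjusted edgeR p under 0.05, and red those named by lowest p; the scatter around 0 is widest at low levels, and Trdn is the most abundant gene with a value below -1.

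Confidence intervals, taken gene by gene, give the range of the difference between these samples. They do not hold for all genes at once. The median SE was 0.24, and the median 95% confidence interval reached 0.54 log2 units to either side. For 9047 genes (70.5%) the whole interval lay within a 2-fold change in either direction. That share was 91.8% at mean levels of 10 to 100 CPM, 86.8% at 100 CPM or more, 60.2% at 1 to 10 CPM and 3.9% under 1 CPM. For rare transcripts, changes beyond 2-fold mostly remained inside the interval.

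The main differences among the 6 libraries did not follow the treatment. The first principal component held 37% of the variance and set Vehicle 55 (33.2) and PCN 5 (35.7) apart from the other libraries (-27.7 to -2.4). The second held 27.6% and set PCN 27 (-48.9) apart from the rest (4.4 to 15.2). Vehicle 15 correlated nearly as closely with PCN 11 (0.983 over log2 CPM of genes) as with Vehicle 23 (0.985), while PCN 11 and PCN 5 stood at 0.9616. These values describe genes of single libraries and carry no test.

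Most genes of slow, oxidative fibres were highest in Vehicle 55 and PCN 5. Ankrd2, a stretch-responsive protein of slow fibres, read 10.9, 64.0 and 101 CPM in Vehicle and 37.5, 14.1 and 314 CPM in PCN. Tpm3, the slow tropomyosin, read 10.8, 16.0 and 30.2 CPM in Vehicle and 12.4, 9.82 and 77.6 CPM in PCN. Casq2, the calsequestrin of slow and cardiac muscle, was at 6.50, 13.2 and 39.5 CPM against 11.2, 8.99 and 67.6 CPM. In these 3 genes the highest Vehicle library was 55 and the highest PCN library 5, and the groups overlapped. Sln (sarcolipin), a regulator of the calcium pump, differed, at 6.50, 0.920 and 1.20 CPM against 0.534, 1.71 and 1.01 CPM, highest in Vehicle 15. The mean log2 level of 7 slow-fibre genes was 5.70 in Vehicle 55 and 6.30 in PCN 5, against 3.45 to 4.55 elsewhere. The other 9 members of that list, the slow myosin Myh7 among them, were not analysed here, and 1 was below the filter. Parvalbumin (Pvalb), the calcium buffer of fast fibres, was lowest in PCN 5 and Vehicle 55, at 7420, 6180 and 3620 CPM in Vehicle and 7580, 3940 and 2260 CPM in PCN. PCN 27, where the slow-fibre genes were not high, came close to Vehicle 55. Mitochondrially encoded genes took 19.5% and 18.5% of the counts in Vehicle 55 and PCN 5, and 11.1% to 14.3% in the others. Vehicle 55 and PCN 5 carry the title numbers 3 and 2, and the other 4 libraries the numbers 7 to 12; what these numbers stand for is not given.

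Genes of muscle protein breakdown marked PCN 27. The ubiquitin ligase Fbxo32 (atrogin-1) was at 940, 654 and 848 CPM in Vehicle, and at 533, 3250 and 839 CPM in PCN. Its partner in atrophy, Trim63 (MuRF1), was at 637, 438 and 299 CPM against 365, 1350 and 304 CPM. Both were picked out after their values were seen, and in both PCN 27 was the highest of the 6 libraries while PCN 5 lay within the Vehicle range and PCN 11 within it (Trim63) or below it (Fbxo32). Eif4ebp1, a brake on translation, followed the same course in PCN 27 (55.0, 61.2 and 59.2 CPM against 42.7, 247 and 99.0 CPM). So did the mitophagy gene Bnip3 (193, 202 and 202 CPM against 145, 478 and 274 CPM) and the lysosomal protease Ctsl (71.2, 67.6 and 85.7 CPM against 57.3, 207 and 106 CPM), with PCN 11 the lowest library for all 3. Over 25 atrophy and autophagy genes, 12 were higher and 13 lower in PCN, the median difference was 0.00, and 0 had an unadjusted p under 0.05.

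**Figure D2:**
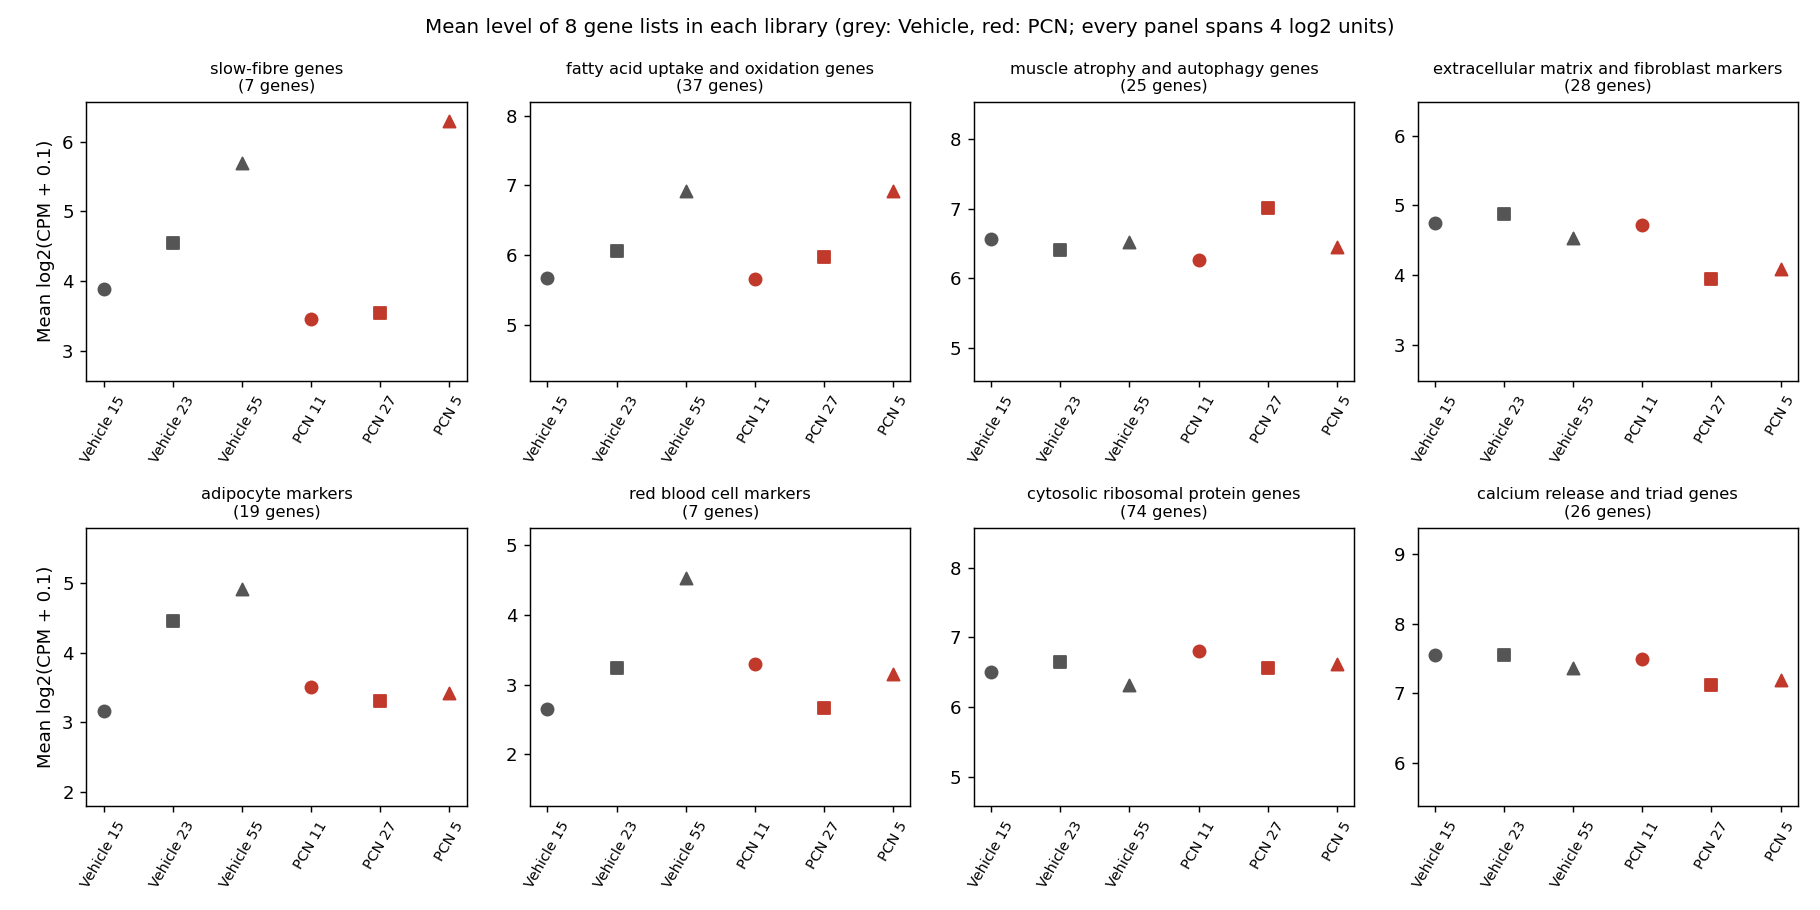
Mean log2(CPM + 0.1) of 8 gene lists in each of the 6 libraries; grey points are Vehicle, red points PCN, and every panel spans 4 log2 units. Slow-fibre and fatty acid genes are highest in Vehicle 55 and PCN 5, atrophy genes in PCN 27, adipocyte markers in Vehicle 23 and Vehicle 55, and red blood cell markers in Vehicle 55.

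Below, genes are named by a rule: the 15 lowest p in each direction at a mean of at least 1 CPM among genes with an assigned symbol, and the leading members of each list. Gene models known by a Gm or Rik name and pseudogenes are left out; 1 such model, F630028O10Rik, had a lower p than every gene named as higher (0.426, 0.748 and 0.228 CPM against 1.67, 2.44 and 1.62 CPM). Being chosen by p, their separation is a description. Of the 15 lower, 14 had groups that did not overlap, and of the 15 higher, 13. Promoter windows of 3 genes that lead their lists are shown because each holds a recognition word of the pathway the gene is known for. They come from the RefSeq promoter table (GRCm38.p6), which held 21 of the 30 genes named by lowest p, and run 5′ to 3′ on the gene's strand. Capitals mark the matches, searched on both strands, and positions are counted from the first transcribed base of the RefSeq start used, as 1. For Cish and Nr4a1 the window lies inside the gene interval given below, which begins further upstream.
Cish promoter, chr9:107296409-107296708, plus strand, capitals TTCNNNGAA (the STAT5 word): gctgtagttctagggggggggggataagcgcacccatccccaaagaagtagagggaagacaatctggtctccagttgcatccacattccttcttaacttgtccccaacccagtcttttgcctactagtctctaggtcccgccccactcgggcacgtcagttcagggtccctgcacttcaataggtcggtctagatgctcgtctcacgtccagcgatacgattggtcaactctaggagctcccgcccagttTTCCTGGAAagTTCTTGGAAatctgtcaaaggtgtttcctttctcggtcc
Nr4a1 promoter, chr15:101266596-101266895, plus strand, capitals TGACG on the reverse strand, CGTCA (the CREB word): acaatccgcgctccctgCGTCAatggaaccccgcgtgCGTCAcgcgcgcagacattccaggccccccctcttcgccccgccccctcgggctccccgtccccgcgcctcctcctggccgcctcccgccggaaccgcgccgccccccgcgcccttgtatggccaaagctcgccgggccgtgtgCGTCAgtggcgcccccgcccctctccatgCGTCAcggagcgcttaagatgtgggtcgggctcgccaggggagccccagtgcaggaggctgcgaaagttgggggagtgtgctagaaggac
Musk promoter, chr4:58285712-58286011, plus strand, capitals CAGCTG (the E-box read by myogenic factors): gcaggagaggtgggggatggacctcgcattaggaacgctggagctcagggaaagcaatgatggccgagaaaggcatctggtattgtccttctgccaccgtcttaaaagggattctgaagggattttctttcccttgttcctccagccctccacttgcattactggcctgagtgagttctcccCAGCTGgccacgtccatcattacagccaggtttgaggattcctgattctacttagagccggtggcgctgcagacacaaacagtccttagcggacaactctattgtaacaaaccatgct
In Cish the STAT5 word stands at positions 1 and 12, and 8.30% of the 32851 promoters of the table hold it. The CREB word, which is also contained in the full element TGACGTCA, stands at -233, -213, -69 and -40 in Nr4a1 and is found in 20.8% of promoters. The E-box stands at -68 in Musk, with 16.3% of promoters holding it. The strict DR3 repeat of PXR was in 0 of the 32851 promoters and the DR4 repeat in 4, none of them of a gene named by lowest p. These are matches of letters in a short window and say nothing of binding.

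Membrane excitability and calcium release genes were among those lower in PCN. Kcnq5 (chr1:21398403-21961942) encodes a voltage-gated potassium channel that carries an M-type current. It read 34.9, 27.2 and 42.5 CPM in Vehicle and 18.2, 15.5 and 17.6 CPM in PCN, a log2 fold change of -1.03 ± 0.19 (SE, n = 3 in each group; interval -1.46 to -0.60). Every PCN library was below every Vehicle library, and the difference stayed between -1.18 and -0.88 with any library left out. Trdn (chr10:33080554-33476709), or triadin, anchors calsequestrin to the ryanodine receptor in the junctional membrane. Its levels were 1260, 1540 and 933 CPM in Vehicle against 520, 404 and 750 CPM in PCN, a difference of -1.16 ± 0.29 (interval -1.81 to -0.51). Here too the groups were apart, with PCN 5 the nearest to Vehicle 55.

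**Figure D3:**
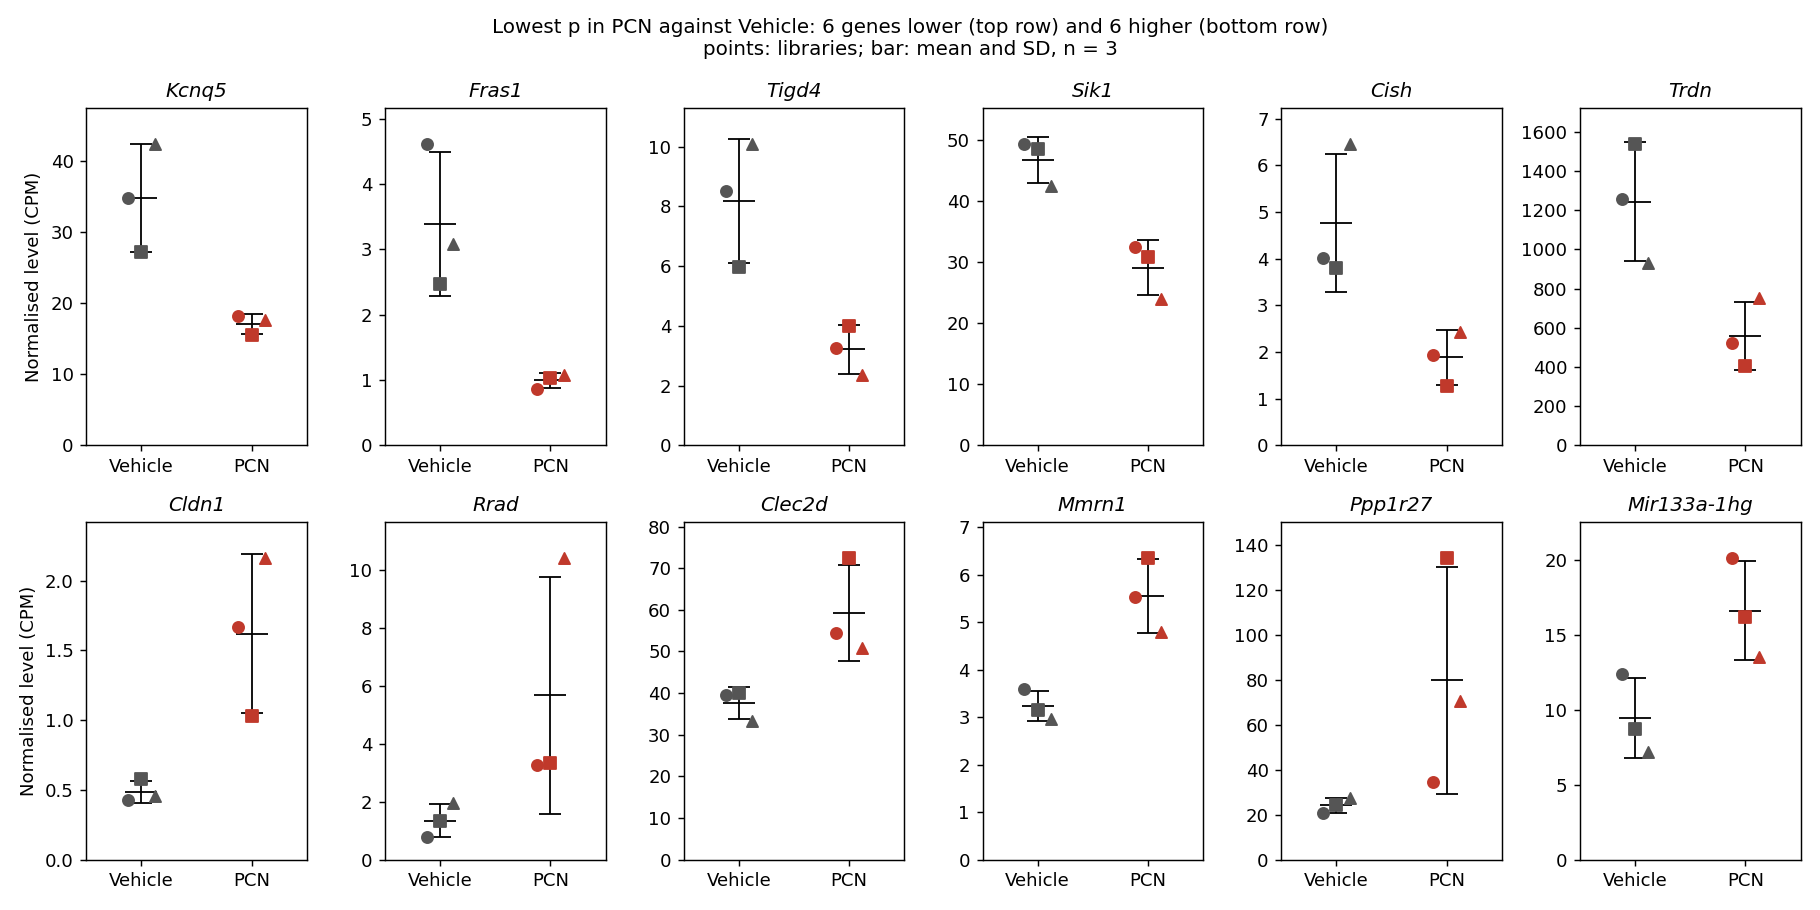
Level in CPM of the 6 genes with an assigned symbol and the lowest p among those lower (top row) and higher (bottom row) in PCN. Grey points are the 3 Vehicle and red points the 3 PCN libraries, with circles, squares and triangles for libraries 15, 23 and 55 and for 11, 27 and 5, and bars for mean and SD; in all 12 panels the groups do not overlap, and for Ppp1r27 and Rrad 1 PCN library lies far above the others.

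The rest of the calcium release machinery gave small differences. Of 26 calcium release and triad genes tested, 22 were lower and 4 higher in PCN, with a median of -0.15 against 0.014 over all genes. Trdn was the 1 member with an unadjusted p under 0.05 (1.47% lower over all genes), and 4 members had PCN wholly below Vehicle (4.08% over all genes). Cacna2d1, a subunit of the voltage sensor channel, was at 518, 533 and 477 CPM in Vehicle and 435, 360 and 389 CPM in PCN (-0.37 ± 0.18). Stim1, the store calcium sensor, was at 138, 128 and 153 CPM against 120, 97.8 and 122 CPM (-0.30 ± 0.17). The ryanodine receptor Ryr1, the release channel itself, was at 5090, 5010 and 5080 CPM against 4440, 4730 and 4130 CPM (-0.19 ± 0.22), a difference below its SE although the groups did not overlap. Jph2, which holds the triad membranes together, read 628, 510 and 327 CPM against 520, 173 and 184 CPM, so PCN 11 lay inside the Vehicle range. Among 20 calcium pumps and buffers, 16 were lower and 4 higher (median -0.17, from -0.365 to -0.073 with a library left out), with 0 at an unadjusted p under 0.05.

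Over the potassium channels as a list the median difference was small. Of 21 tested, Kcnq5 included, 16 were lower and 5 higher (median -0.12), and without PCN 27 the median was -0.004. An unadjusted p under 0.05 was found for 1 lower, Kcnq5, and 1 higher, Kcnk5 (1.47% and 1.35% over all genes). In 3 members, Kcnq5 and Kcnq1 among them, PCN was wholly below Vehicle (4.08% over all genes). Kcnq1, a relative of Kcnq5, was under 1 CPM in every library, at 0.729, 0.690 and 0.800 CPM in Vehicle and 0.134, 0.342 and 0.540 CPM in PCN. The leak channel gene Kcnk5 lay the other way, at 1.28, 0.690 and 0.571 CPM against 0.935, 2.39 and 2.36 CPM, with overlapping groups. Of the 12 sodium pump subunits and regulators, 4 were higher and 8 lower (median -0.14, and 0.085 without Vehicle 55).

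Of the cAMP and activity-response pathway, a kinase and a nuclear receptor were among the lower genes. Sik1 (chr17:31844250-31855804), a kinase induced by CREB that restrains CREB's coactivators, was at 49.4, 48.5 and 42.4 CPM in Vehicle and 32.5, 30.8 and 24.0 CPM in PCN. The log2 fold change was -0.69 ± 0.17 (interval -1.06 to -0.31), with a clear gap between the groups. Nr4a1 (chr15:101254269-101274795), an orphan nuclear receptor induced by exercise and adrenergic signals, whose promoter words are printed above, was at 215, 181 and 150 CPM against 140, 93.5 and 97.3 CPM. Its difference was -0.72 ± 0.22, and PCN 11 came close to Vehicle 55. Mef2c, a muscle transcription factor, was at 662, 734 and 701 CPM against 586, 283 and 575 CPM (-0.54 ± 0.28), with the lowest value in PCN 27. Of 27 CREB, SIK and NR4A genes tested, 19 were lower and 8 higher, with a median of -0.16 that stayed between -0.178 and -0.079 with any library left out. Sik1 and Nr4a1 were the 2 members with an unadjusted p under 0.05 (1.47% lower over all genes). With Mef2c, they were the 3 members with PCN wholly below Vehicle (4.08% over all genes).

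Immediate early genes did not share 1 direction. Of 22 tested, 14 were lower and 8 higher in PCN (median -0.12, and -0.025 without PCN 27). An unadjusted p under 0.05 was found for 1 in each direction (1.47% lower and 1.35% higher over all genes). Myc, a growth transcription factor, was at 8.39, 7.19 and 6.97 CPM in Vehicle, and its 3 PCN libraries were close together at 10.1 ± 0.13 CPM (SD). It was the 1 member with PCN wholly above Vehicle (0.43 ± 0.17), and 2 members had PCN wholly below (4.40% and 4.08% over all genes). Zfp36, which promotes decay of inflammatory mRNAs, ranged from 15.6 to 40.5 CPM in Vehicle and from 8.64 to 21.6 CPM in PCN, with overlap.

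Cytokine signalling was represented by Cish (chr9:107296026-107302784), a SOCS-family inhibitor induced by STAT5 downstream of growth hormone. It read 4.01, 3.80 and 6.46 CPM in Vehicle and 1.94, 1.27 and 2.43 CPM in PCN, a difference of -1.35 ± 0.33 (interval -2.10 to -0.60). All PCN libraries were below all Vehicle libraries, at 26 to 36 counts in PCN and 66 to 113 in Vehicle. Exons of the gene share 11.5% of their bases with unnamed genes on the other strand, and without a stated strand setting such reads cannot be told apart. Among the other 24 genes of the list none had an unadjusted p under 0.05. Of the 25, 2 had PCN wholly below Vehicle, Cish among them (4.08% over all genes). Socs2, another STAT5 target, was at 8.45, 8.11 and 5.88 CPM against 8.08, 7.13 and 8.57 CPM, with a difference of 0.08 ± 0.21. Socs3, induced through STAT3, ranged from 2.31 to 8.63 CPM in Vehicle and from 5.96 to 13.2 CPM in PCN (1.10 ± 0.51). Ghr, the growth hormone receptor, was at 177, 197 and 158 CPM against 175, 92.2 and 120 CPM, and Igf1, the growth factor it controls, at 7.48, 7.36 and 6.06 CPM against 9.95, 4.83 and 18.4 CPM. Of 25 growth hormone, JAK-STAT and IGF genes, 16 were higher and 9 lower (median 0.08, and -0.106 without PCN 5).

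Several low-abundance genes completed the lower set, 9 of its 15 members having a mean under 5 CPM. Fras1 (chr5:96373955-96784728), a basement membrane protein at epithelial contacts, had 4.62, 2.47 and 3.08 CPM in Vehicle and 0.868, 1.03 and 1.08 CPM in PCN, or 43 to 76 counts against 13 to 21. The difference was -1.76 ± 0.34. Tigd4, a gene derived from a transposase, was at 8.51, 5.98 and 10.1 CPM against 3.27, 4.00 and 2.36 CPM (-1.34 ± 0.28). Map3k7cl had 10 to 20 counts per PCN library, and its levels were 2.98, 2.59 and 2.97 CPM against 1.14, 0.488 and 1.35 CPM. The prostaglandin E receptor gene Ptger3 read 1.70, 2.01 and 3.14 CPM in Vehicle and 0.801, 1.03 and 0.675 CPM in PCN. Casp12, a caspase linked to the endoplasmic reticulum, showed tight groups at 10.7, 9.78 and 9.60 CPM against 6.68, 6.45 and 5.47 CPM (-0.69 ± 0.18). Cilp, a matrix protein of cartilage and fibroblasts, was at 21.0, 16.2 and 19.4 CPM against 10.6, 10.8 and 4.52 CPM, lowest in PCN 5. Pnmt (the enzyme that makes adrenaline), Hs6st2 (a heparan sulfate sulfotransferase), Arnt2 (a partner of bHLH-PAS factors) and Klhdc7a had log2 fold changes of -1.11, -1.13, -1.80 and -1.68, with levels under 6 CPM in every library. Ifi27l2a, an interferon-inducible gene, had 2.19, 6.10 and 8.63 CPM in Vehicle and 2.20, 1.61 and 1.62 CPM in PCN, so Vehicle 15 was level with PCN 11.

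Among the 15 genes higher in PCN were some of the nerve-muscle contact and of muscle differentiation, though not with the lowest p of the set. Musk (chr4:58285960-58374303) encodes the receptor kinase that organises the neuromuscular junction. Its levels were 29.5, 26.9 and 22.1 CPM in Vehicle and 36.4, 50.2 and 34.5 CPM in PCN, a difference of 0.63 ± 0.19 (interval 0.19 to 1.06), with the groups apart. Myog, or myogenin, a myogenic factor that rises in denervated muscle, was at 4.92, 4.14 and 3.83 CPM against 5.61, 12.7 and 6.75 CPM. Its difference was 0.97 ± 0.31, and 0.52 without PCN 27, its highest library. Klhl40, a stabiliser of thin filament proteins, was at 84.2, 84.5 and 60.3 CPM against 97.0, 132 and 127 CPM (0.64 ± 0.20), and 21.6% of its exon bases are shared with a gene on the other strand. Mir133a-1hg, the host transcript of a muscle microRNA, was at 12.4, 8.68 and 7.20 CPM against 20.1, 16.2 and 13.5 CPM. It is annotated as antisense, and 0 of its 395 exon bases are shared with another annotated gene.

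The other genes of the neuromuscular junction were divided. Of 20 tested, 11 were higher and 9 lower in PCN (median 0.01). An unadjusted p under 0.05 was found for 2 higher and 1 lower (1.35% and 1.47% over all genes). Dok7, the adaptor that activates MuSK, lay opposite to Musk, at 19.3, 18.1 and 13.6 CPM in Vehicle and 14.6, 9.52 and 11.5 CPM in PCN (-0.52 ± 0.21, groups overlapping). The denervation-induced gene Gadd45a was at 14.5, 12.8 and 17.6 CPM against 15.6, 32.7 and 17.9 CPM, high in PCN 27. Among 17 myogenic and satellite cell genes, 8 were higher and 9 lower. Myog was the 1 with an unadjusted p under 0.05 (1.35% higher over all genes).

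Ppp1r27 (chr11:120549979-120551132), a regulatory subunit of protein phosphatase 1 found in muscle, had the lowest DESeq2 adjusted p together with Kcnq5, 0.0779. It read 20.9, 24.2 and 27.6 CPM in Vehicle and 34.3, 134 and 70.7 CPM in PCN (1.72 ± 0.46). Each PCN library was above Vehicle, but their spread was wide, and the difference ran from 1.11 to 2.08 with a library left out. Rrad, a small GTPase that inhibits calcium channels, was at 0.790, 1.32 and 1.94 CPM against 3.27, 3.32 and 10.4 CPM (2.05 ± 0.54), highest in PCN 5. Cldn1, a tight junction protein of epithelia, was at 0.426, 0.575 and 0.457 CPM against 1.67, 1.03 and 2.16 CPM, or 21 to 32 counts per PCN library. Of 14 epithelial and keratinocyte markers, 3 could be tested and 9 were not analysed here.

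The remaining genes higher in PCN had roles outside the nerve-muscle contact. Clec2d, a lectin-like ligand of immune receptors, was at 39.6, 40.0 and 33.2 CPM in Vehicle and 54.5, 72.4 and 50.8 CPM in PCN (0.65 ± 0.18). Mmrn1, an endothelial and platelet protein, was at 3.59, 3.16 and 2.97 CPM against 5.54, 6.35 and 4.79 CPM (0.78 ± 0.23). Khk, the enzyme that phosphorylates fructose, was at 8.33, 9.83 and 8.17 CPM against 11.8, 13 and 18.1 CPM (0.70 ± 0.21). In these 3 genes the groups did not overlap. The chemokine Ccl25, the interferon-induced GTPase Gbp4 and the RNA helicase Ddx51 had log2 fold changes of 0.84, 1.03 and 0.74, also with groups apart. For Akt1, the insulin signalling kinase, the levels were 33.9, 46.5 and 38.7 CPM against 46.0, 82.9 and 66.5 CPM, with PCN 11 just under Vehicle 23 (0.71 ± 0.23). Trnau1ap, a factor of selenocysteine incorporation, also overlapped (0.74 ± 0.24).

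No gene of the PXR pathway itself passed the test. Nr1i2, Cyp3a11 and Abcc3 were not analysed here. Of 20 nuclear receptors and cofactors tested, 3 were higher and 17 lower (median -0.13, and -0.028 without Vehicle 55), with 0 at an unadjusted p under 0.05. The list holds the PXR partners Rxra, Rxrb and Rxrg beside other receptors such as Ppara, Thra and Nr3c1. The heterodimer partner Rxra read 133, 149 and 122 CPM in Vehicle and 137, 144 and 105 CPM in PCN. Phase I enzymes, which oxidise drugs, could be tested for 9 of 27 members, 14 not being analysed here, with 4 higher and 5 lower (median -0.01). Por, the reductase that feeds electrons to cytochromes P450, was at 21.9, 27.0 and 38.2 CPM against 16.7, 46.9 and 64.1 CPM, covering the whole Vehicle range (0.55 ± 0.47). Alas1, the first enzyme of haem synthesis, was at 73.2, 90.3 and 83.2 CPM against 93.3, 61.9 and 89.9 CPM (-0.01 ± 0.19, interval -0.44 to 0.42).

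Conjugating enzymes and transporters leaned upward on small differences. All 13 phase II enzymes tested of 25 were higher in PCN, with a median of 0.19 and 0 at an unadjusted p under 0.05, and without PCN 5 the median was -0.013. The glutathione transferase Gstm1 was at 58.7, 62.5 and 52.5 CPM in Vehicle and 60.3, 72.1 and 77.6 CPM in PCN, and Gstt2 at 1.22, 1.32 and 2.57 CPM against 1.60, 2.64 and 3.71 CPM. Glutathione transferases are a family of close copies, so reads can be split among them. Of 13 transporters and other targets, 10 were higher and 3 lower (median 0.15, and -0.08 without PCN 5). The drug efflux pump gene Abcb1b was the 1 member at an unadjusted p under 0.05 (1.35% higher over all genes). It was at 11.3, 12.5 and 14.4 CPM against 12, 34.8 and 20.4 CPM (0.82 ± 0.35), with PCN 11 inside the Vehicle range. Its near copy Abcb1a was at 6.2, 7.07 and 9.83 CPM against 7.81, 6.79 and 11.1 CPM (0.15 ± 0.25), and below Vehicle (-0.08) without PCN 5. Cpt1a, the liver form of the gate to fatty acid oxidation, was at 11.4, 12.6 and 10.6 CPM against 18.6, 10.1 and 27.1 CPM.

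Glucocorticoid-responsive genes were lower more often than higher, by small amounts. Of 27 tested, 19 were lower and 8 higher (median -0.18, range -0.264 to -0.041 with a library left out). Fkbp5, a chaperone of the glucocorticoid receptor and a sensitive target of it, was at 107, 97.8 and 107 CPM in Vehicle and 82.4, 86.6 and 77.4 CPM in PCN (-0.34 ± 0.15). It was the 1 member at an unadjusted p under 0.05 (1.47% lower over all genes), and its groups were apart. Zbtb16, another target, was at 148, 133 and 174 CPM against 119, 129 and 116 CPM, also apart (-0.32 ± 0.17). These were the 2 members with PCN wholly below Vehicle (4.08% over all genes). The receptor gene Nr3c1 was at 233, 213 and 139 CPM against 197, 133 and 144 CPM, with overlap.

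No metabolic gene passed the test, and the lists differed in direction. Slc2a4, the insulin-regulated glucose transporter, was at 287, 295 and 237 CPM in Vehicle and 283, 233 and 212 CPM in PCN (-0.17 ± 0.19). Pdk4, the brake on pyruvate oxidation, was at 1220, 1150 and 1660 CPM against 1090, 1370 and 1590 CPM (0.00 ± 0.24). The mitochondrial carrier Ucp3 was at 318, 332 and 302 CPM against 345, 253 and 281 CPM (-0.12 ± 0.18). Of 30 glucose uptake, glycolysis and glycogen genes, 9 were higher and 21 lower (median -0.12, and 0.024 without PCN 27). Insulin signalling genes split 14 to 14 (median 0.01), and fatty acid uptake and oxidation genes were higher for 18 and lower for 19 (median -0.01, from -0.479 without PCN 5 to 0.377 without Vehicle 55). Fasn, fatty acid synthase, was at 32.1, 28.9 and 27.9 CPM against 25.6, 15.8 and 20.6 CPM (-0.52 ± 0.19), while the 17 lipogenesis genes had a median of -0.04. Of 76 nuclear oxidative phosphorylation genes, 72 were lower and 4 higher (median -0.11), and without PCN 27 the median was 0.045. Of 74 cytosolic ribosomal protein genes, 73 were higher and 1 lower, with a median of 0.18 (0.074 without Vehicle 55, 0.089 without PCN 11). An unadjusted p under 0.05 was found for 1 of them, higher in PCN (1.35% over all genes). In 11 members PCN was wholly above Vehicle (4.40% over all genes). Many of these genes have processed copies that can share their reads. The 22 cholesterol synthesis genes had a median of 0.10, and -0.225 without PCN 5.

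**Figure D4:**
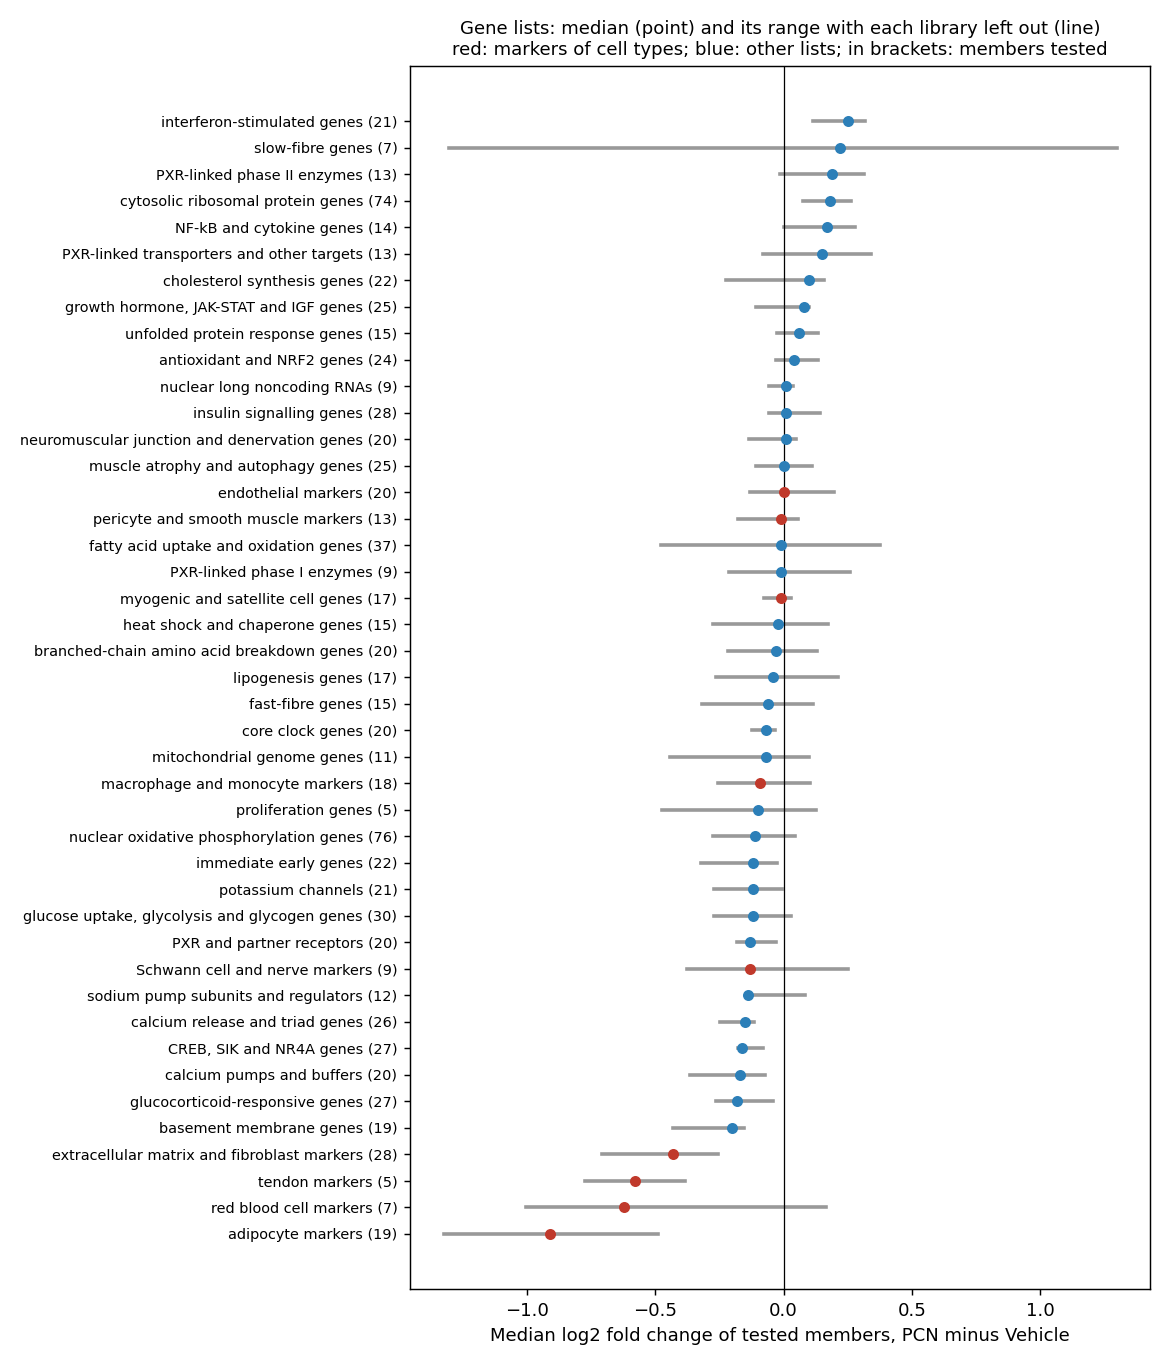
Median log2 fold change (PCN minus Vehicle) of the tested members of each of 43 gene lists, with the range of that median when each library is left out in turn as a grey line. Red points are markers of cell types and blue points other lists; adipocyte, tendon and matrix lists lie below 0 over their whole range, and the slow-fibre line runs from -1.302 to 1.298.

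Stress and defence lists held from 0 to 3 genes at an unadjusted p under 0.05. Of 24 antioxidant and NRF2 genes, 14 were higher and 10 lower (median 0.04), with 3 at that level, all higher (1.35% over all genes). Sod1, cytosolic superoxide dismutase, was at 82.4, 100 and 79.9 CPM in Vehicle and 104, 138 and 110 CPM in PCN, and Gclc, the first enzyme of glutathione synthesis, at 12, 10.8 and 13.9 CPM against 13.9, 16.7 and 18.1 CPM. The ferritin gene Ftl1 overlapped, at 46.8, 39.1 and 40.9 CPM against 38.0, 79.9 and 77.4 CPM. Interferon-stimulated genes were higher for 18 of 21 (median 0.25, and 0.116 without PCN 5), with 0 at an unadjusted p under 0.05 and 4 with PCN wholly above Vehicle (4.40% over all genes), Gbp3 among them at 1.22, 1.21 and 1.37 CPM against 1.80, 1.66 and 2.70 CPM. In the unfolded protein response list 9 of 15 were higher and 6 lower. An unadjusted p under 0.05 was found for 2, both lower (1.47% over all genes). The same 2 had PCN wholly below Vehicle (4.08% over all genes). They were Phgdh, an enzyme of serine synthesis (0.912, 2.88 and 1.77 CPM against 0.801, 0.781 and 0.473 CPM), and Chac1, which degrades glutathione (46.1, 37.3 and 44.6 CPM against 35.7, 18.6 and 12.8 CPM). Clock genes were lower for 13 of 20 (median -0.07), and Hlf, a clock output factor, was at 8.94, 10.9 and 10.7 CPM against 8.42, 7.52 and 8.03 CPM.

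Markers of cells other than muscle fibres gave the largest list medians. In bulk tissue, fewer cells of a type and less RNA per cell cannot be told apart. Of 19 adipocyte markers, 17 were lower and 2 higher in PCN, with a median of -0.91, which was -0.49 without Vehicle 55. An unadjusted p under 0.05 was found for 5, all lower (1.47% over all genes). Their mean log2 level was 3.17, 4.46 and 4.91 in Vehicle and 3.51, 3.30 and 3.42 in PCN, so that Vehicle 15 was the lowest of all and Vehicle 23 and 55 stood above the other libraries. Plin1, the coat protein of the fat droplet, showed it at 5.47, 18.9 and 32.2 CPM against 7.61, 7.18 and 2.30 CPM. Adiponectin (Adipoq) read 5.77, 25.9 and 26.5 CPM against 10.8, 9.96 and 4.46 CPM. Ifi27l2a and Klhdc7a, named above, were likewise highest in Vehicle 55 and next in Vehicle 23; whether adipocyte RNA has a part in their difference was not tested.

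Matrix genes were lower in the libraries PCN 27 and PCN 5. Of 28 extracellular matrix and fibroblast markers, 26 were lower (median -0.43), with 3 lower at an unadjusted p under 0.05 (1.47% over all genes) and 1 with PCN wholly below Vehicle (4.08% over all genes). That gene, Dpt (dermatopontin), was at 24.9, 26.2 and 21.2 CPM in Vehicle and 20.2, 13.2 and 10.9 CPM in PCN (-0.71 ± 0.23). Col1a1, the main fibrillar collagen, was at 31.2, 28.8 and 25.2 CPM against 27.6, 6.15 and 9.79 CPM, and PCN 11 lay within Vehicle. The median was -0.254 without PCN 27 and -0.705 without PCN 11. All 5 tendon markers tested were lower, Col12a1 among them at 11.4, 10.8 and 9.48 CPM against 8.48, 7.67 and 5.67 CPM. Of 19 basement membrane genes, 18 were lower (median -0.20, and -0.43 without PCN 11), and perlecan (Hspg2) was at 152, 155 and 168 CPM against 123, 83.9 and 122 CPM, with the groups apart (-0.53 ± 0.19). Cilp and Fras1 above belong with these tissues by their known sites, and their lowest libraries were PCN 5 and PCN 11 respectively.

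Other cell types showed no common direction or rested on 1 library. Endothelial markers split 10 to 10 (median 0.00), and macrophage markers were higher for 7 and lower for 11 (median -0.09). All 7 red blood cell markers tested were lower (median -0.62), but the median was 0.164 without Vehicle 55. The globin gene Hba-a1, which shares reads with a near-identical copy, was at 9.48, 15.8 and 46.6 CPM in Vehicle and 14.8, 13.1 and 15.0 CPM in PCN.

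Set beside the uninjected mice on a common scale of 12 libraries, the leading genes differed in which injected group lay nearer. Kcnq5 was at 38.6 ± 3.48 CPM in HFD and 34.0 ± 9.36 in Chow (SD, n = 3 each), beside 33.1 ± 7.34 in Vehicle and 16.2 ± 1.24 in PCN. Trdn stood at 1200 ± 172 CPM in HFD and 924 ± 178 in Chow, beside 1180 ± 285 in Vehicle and 527 ± 165 in PCN. For these genes the mean that stood apart was that of PCN. Both were chosen by a low p between PCN and Vehicle, so a PCN mean apart is partly built in. The lowest Chow library of Trdn was at 753 CPM. Sik1 had 54.4 ± 5.63 CPM in HFD, 49.0 ± 16.2 in Chow, 44.4 ± 3.57 in Vehicle and 27.5 ± 4.30 in PCN, but 1 Chow library, at 30.6 CPM, lay within the spread of PCN. Cish, in contrast, was at 2.62 ± 0.390 CPM in HFD and 3.28 ± 2.09 in Chow, between 4.51 ± 1.41 in Vehicle and 1.78 ± 0.544 in PCN. Ppp1r27 was at 23.1 ± 6.05 CPM in HFD and 42.0 ± 6.04 in Chow, against 23.0 ± 3.20 in Vehicle and 75.4 ± 48.0 in PCN. Musk was at 33.8 ± 7.57 CPM in HFD and 36.8 ± 20.5 in Chow, nearer to PCN (38.2 ± 8.27) than to Vehicle (24.8 ± 3.61), and the Chow libraries alone spanned both. Rrad, at 5.14 ± 5.15 CPM in HFD and 11.8 ± 14.8 in Chow, varied more among uninjected libraries than between PCN and Vehicle. None of these comparisons with uninjected mice was tested.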

How the data were processed

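Total RNA of muscle pieces was DNase-treated and sequenced on Illumina libraries, per the labels' protocols. HISAT2, HTSeq and DESeq2, and GRCm38 and mm10 as builds, are listed in the submitters' processing notes; their versions and the strand setting were not given in the sources used here. The authors deposited raw counts per gene for 24453 genes, not normalised, beside their own DESeq2 columns, other values from which only adjusted p-values were read. Replicate libraries differed by more than sampling noise (chi-square per gene 27.76 to 121).

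The 6 libraries were fitted with edgeR 4.0.16 (R 4.3.3): TMM, expression filter with a minimum count of 10, robust quasi-likelihood F test, Benjamini-Hochberg adjustment over all genes tested. The SE is the absolute log2 fold change over the square root of F. Alternatives were DESeq2 1.42.0, other scalings, filters and thresholds, libraries left out, title numbers as a block, and all 12 libraries; the fit was tested on simulated data. The 15 genes of lowest p per direction at a mean of at least 1 CPM, up to 4 leading members per list and 10 fixed genes could be named; further list members were chosen after their values were seen. The comparison and the 46 gene lists were chosen with earlier results of these data known.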

Additional observations from a re-analysis of the deposited data

How the results depend on the processing

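With no expression filter, 21 genes passed the edgeR threshold, 7 higher and 14 lower in PCN, among them Kcnq5, Trdn, Cilp, Tigd4, Fras1, Cish, Klhdc7a, Ifi27l2a, Chac1, F630028O10Rik and Rrad (adjusted p of Rrad 2.17e-05); 1004 genes then had an unadjusted p under 0.05 and 1726 had groups apart. Also among the 21 were Chrna9, Stra6l, Rgs16 and Irs3, which the filter of the main fit had left out. Chrna9 had 1, 0 and 0 counts in Vehicle and 1, 32 and 9 in PCN. Stra6l had 0, 0 and 1 against 3, 0 and 31, Rgs16 1, 3 and 2 against 9, 1 and 56, and Irs3 5, 13 and 71 against 3, 10 and 5. Why more genes passed without the filter was not tested. All other alternatives called 0 genes, an adjusted p under 0.1 included. Unadjusted p under 0.05 was met by 215 genes at a minimum count of 50, by 583 with all 12 libraries and by 573 with the title numbers as a block. Leaving out 1 library gave 251 to 1004 such genes, most without PCN 11, and 2033 to 3134 genes with groups apart. Without PCN 5 and Vehicle 55 together, added after the data were seen, 3989 genes had groups apart, 397 had an unadjusted p under 0.05 and 0 passed. With fewer libraries per group, groups are apart more easily. Settings that changed the filter or the libraries had their own set of genes tested, 24453 genes with no filter. Their counts are therefore not shares of the genes of the main fit. No paired analysis was possible because the replicate numbers of the 2 groups share none.

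Of 1284 recomputed values of 93 genes, 25 changed sign, in 14 genes. With each library left out, Tpm3 ran from -0.78 to 1.30, Ankrd2 from -1.19 to 1.69, Casq2 from -0.97 to 1.55, Sln from -1.88 to 0.06, Pvalb from -0.89 to 0.00, Fbxo32 from -0.25 to 1.33, Trim63 from -0.45 to 0.90, Hba-a1 from -1.13 to 0.16, Abcb1a from -0.08 to 0.35, Alas1 from -0.12 to 0.15, Rxra from -0.16 to 0.06, Socs2 from -0.08 to 0.18 and Pdk4 from -0.13 to 0.17. Fbxo32 and Trim63 were below Vehicle only without PCN 27, and Sln above it only without Vehicle 15. Pdk4 was at -0.01 with no filter and -0.00 with all 12 libraries. Without PCN 5 and Vehicle 55, Tpm3 was at -0.28, Ankrd2 at -0.54, Hba-a1 at 0.14, Socs2 at -0.13 and Igf1 at -0.02. Of 602 recomputed medians of 43 lists, 80 had the other sign, in 29 lists. The causes were not tested. The 95% interval lay within a 2-fold change for 3.9% of genes under 1 CPM.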
